A study of Mus musculus with 14 samples.

Results

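Laminins and nidogens are the proteins that give the basement membrane its first network and its links. The genes described are 5 laminin alpha chains (*Lama1*, *Lama2*, *Lama3*, *Lama4*, *Lama5*), 2 beta chains (*Lamb1*, *Lamb2*), 1 gamma chain (*Lamc1*) and 2 nidogens (*Nid1*, *Nid2*). They were chosen by name, and 10 of 10 had UMIs in both tissues, among 26487 genes with UMIs in brain and 27799 in retina. Their UMIs came to 60970 of 80831698 in the brain libraries and to 33069 of 257539046 in the retina libraries. Each value was the sum over the nuclei of a deposited cell type label in a library, as CPM, the usual scaling of a count by the total of all UMIs of that label and library.

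Single-nucleus RNA sequencing (snRNAseq) was used to profile whole retina and vessel-enriched brain of mice whose endothelial cells (ECs) had lost *Tgfbr1*, which encodes a receptor for TGF-beta. The knockout (CKO) mice were *Cdh5CreER;Tgfbr1 CKO/-*, written VEcadCreER;Tgfbr1CKO/- in the labels, and received 4-hydroxytamoxifen (4HT) from P3 to P5. The CreER is driven by an endothelial promoter, so the deletion was aimed at ECs. The control libraries are labelled wild type, with no 4HT in the labels, and the study calls them controls. The methods give P14 as the age of sampling, while the series text says young adult. The brain part had 1 control and 1 CKO library, each from 2 pooled brains. The retina part had 1 control and 11 CKO libraries, of which 7 used kit version 4 and 4 used kit version 5. Metadata of the retina name 3 batches, with the control and CKO replicates 1 to 3 in batch 1, CKO replicates 4 and 5 in batch 2 and CKO replicates 6 to 11 in batch 3. Batches 2 and 3 hold CKO libraries alone.

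The brain control library held 16649 nuclei and 49798325 UMIs, and the brain CKO library held 14675 nuclei and 31033373 UMIs. The retina control held 11513 nuclei and 30989702 UMIs. The 11 retinal CKO libraries held from 104 to 18862 nuclei (median 4210) and from 90449 to 55803724 UMIs (median 16443337). The authors had curated the nuclei by hand, and in CKO replicates 4 and 5 they took out multi-nucleus clusters. CKO replicate 4, with 104 nuclei, also stood apart from the others by depth and entered only the comparisons in ganglion cells and immune cells. In brain 2 of 31322 distinct barcodes occurred in both libraries, and in retina 10 of 77666 occurred in more than 1 library, at most 2 in any pair of libraries. Gene annotation differed between the retinal batches: 401 genes with at least 500 UMIs had UMIs in batch 3 alone and 193 in batches 1 and 2 alone, but 0 of the 10 genes described were among them.

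*Tgfbr1* served as a check of the labels. In brain ECs it stood at 69.1 CPM in the control and 62.9 CPM in the CKO library. In whole retina it stood at 89.0 CPM in the control and between 71.4 and 87.0 CPM in 10 CKO libraries, with replicate 4 at 365 CPM from 33 UMIs. The UMIs are counted near the 3′ end of the transcript, so they do not test whether the floxed exon was deleted. *Xist*, transcribed in females, was at 1963 CPM in the brain control and 1.29 CPM in the brain CKO library, and the Y-linked *Uty* was at 64.5 and 133 CPM. The brain libraries therefore differed in the sexes of their pooled mice, which cannot be told apart from genotype. In retina the control had *Xist* at 6779 CPM and *Uty* at 2.07 CPM. *Xist* was high in CKO replicates 1, 2, 4 and 7 as well, while the other 7 CKO libraries had *Uty* from 239.8 to 316 CPM and *Xist* at 12.9 CPM or below. The only retinal control thus differed in sex from most CKO libraries, and sex was not a term of the fits.

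Laminins are trimers of an alpha, a beta and a gamma chain that polymerise beneath epithelia and endothelia and around muscle cells and some glia. Nidogens join the laminin network to the type IV collagen network and to perlecan, while integrins and dystroglycan hold cells to it. In the brain the vessel wall has an endothelial basement membrane and, around it, a parenchymal one laid down by astrocytes and leptomeningeal cells, and the alpha chains of the layers affect where leukocytes cross.

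The brain comparison asked how the basement membrane genes of ECs and their neighbours differed between the CKO and the control library. With 1 library per genotype no test was possible: ratios compare libraries, and their 95% intervals (exact, conditional binomial; exact Poisson for a CPM value) cover counting error only. A gene was counted as higher or lower where the CKO over control ratio passed 1.5-fold and the label held at least 50 UMIs of it over both libraries. ECs gave 2475 nuclei and 5801552 UMIs in the control and 2944 nuclei and 6851854 UMIs in the CKO library. All 10 genes had enough UMIs there. Of these, 0 were higher, beside 21.4% of the 11351 EC genes, and 2 were lower (*Lama5* and *Nid1*), beside 9.32%. The median log2 ratio of the 10 was -0.16, and that of all EC genes was 0.14. TMM factors, which shift every EC ratio by -0.10 on the log2 scale, put 4 of the 10 past the fold downward, with *Lama1* and *Lamb2* added, beside 12.2% of EC genes lower and 17.5% higher under the same factors.

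**Figure D1:**
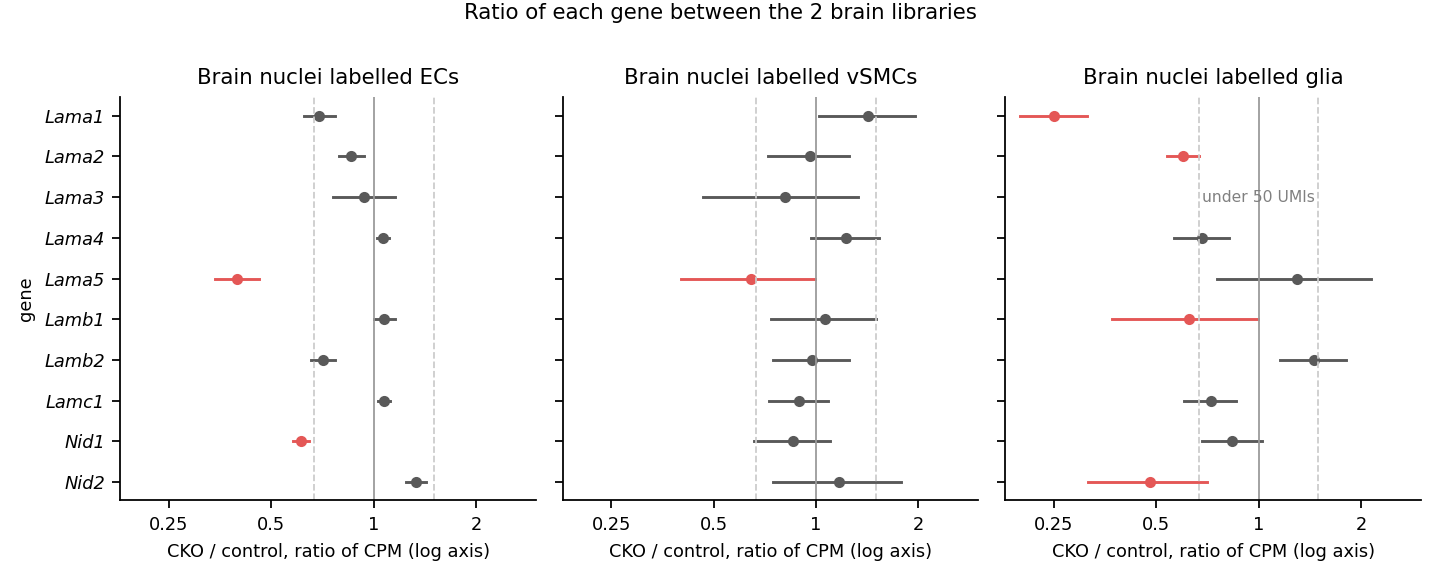
CKO over control ratio of CPM (log axis) of each gene in nuclei labelled ECs, vSMCs and glia, 1 brain library per genotype, with bars for the 95% counting interval, dashed lines at the 1.5-fold limits and red for genes past them. *Lama5* sat at 0.397 and *Nid1* at 0.611 in ECs, while *Lama1* sat at 0.251 in glia.

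*Lama1* encodes the alpha chain of early embryonic basement membranes and, later, of the pia and some gliovascular sites. In the label "glia" it was at 678 CPM (1175 UMIs) in the control and 170.3 CPM (85 UMIs) in the CKO library, a ratio of 0.251 (0.199 to 0.313). ECs held 139.6 CPM in the control and 96.6 CPM in the CKO library, a ratio of 0.692 (0.624 to 0.768), and vascular smooth muscle cells (vSMCs) held 133 and 189.7 CPM, a ratio of 1.42 (1.02 to 1.95). The CKO library was thus the lower in glia and ECs and the higher in vSMCs. In ECs the ratio passed the fold with TMM factors (0.644), with nuclei weighted equally (0.595) and in nuclei with few pericyte markers (0.456). With each nucleus given equal weight the vSMC ratio was 0.722 and with nuclei thinned to 500 UMIs it was 0.743, while in nuclei with at least 1000 UMIs it was 1.60, so its direction depended on the depth and weight of nuclei. A glutamatergic neuron cluster, Glut_1, held 19.3 CPM in the control and 29.2 CPM in the CKO library.

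*Lama2* encodes the alpha chain of muscle and of the parenchymal basement membrane of brain vessels. Astrocytes held 1664 CPM in the control and 1238 CPM in the CKO library, a ratio of 0.744 (0.680 to 0.814). Glia held 1280.0 and 767 CPM, a ratio of 0.599 (0.536 to 0.668), and ECs held 199 and 171 CPM, a ratio of 0.860 (0.792 to 0.933). The CKO library was lower in all 3 labels, beyond counting error, and past the fold in glia alone when all nuclei were used as they are. The astrocyte ratio also passed it with TMM factors (0.631) and in nuclei with at least 1000 UMIs (0.523). In ECs the ratio turned to 1.00 with nuclei weighted equally and to 1.21 with nuclei thinned, and in nuclei with few pericyte markers it was 3.90 from 5 control and 8 CKO UMIs. Pericytes, with only 201 control and 22 CKO nuclei, held 2068 and 2279 CPM.

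*Lama3* encodes an alpha chain of epithelial laminins. Its highest level was in CP_6, a cluster with ependymal markers, at 213 CPM in the control and 190.2 CPM in the CKO library, a ratio of 0.892 (0.771 to 1.03). In ECs 30.7 CPM stood against 28.8 CPM, a ratio of 0.937 (0.761 to 1.15). Both intervals held 1, but the EC ratio moved with the choice and weight of nuclei. It was 0.516 with nuclei weighted equally and 1.19 with nuclei thinned. Among nuclei with 2 endothelial markers the ratio was 0.727 (0.615 to 0.857). That set, with 3205 control and 3115 CKO nuclei, was larger than the EC label and reached beyond it.

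*Lama4* and *Lama5* encode the alpha chains of endothelial basement membranes, and the product of *Lama5* is known to hinder leukocyte crossing where it is dense. *Lama4* in ECs was at 679 CPM in the control and 724 CPM in the CKO library, a ratio of 1.07 (1.02 to 1.11). The ratio became 0.992 under TMM factors and 0.915 (0.769 to 1.09) among EC nuclei with few pericyte markers. Nuclei with 2 endothelial markers, a set that reached beyond the EC label, gave 1.32 (1.27 to 1.38). *Lama5* in ECs was at 101 CPM (585 UMIs) in the control and 40.0 CPM (274 UMIs) in the CKO library. The counting intervals of these levels did not overlap, and the ratio was 0.397 (0.342 to 0.459). Under 7 alternatives of scaling, depth, weighting and choice of nuclei it ranged from 0.339 to 0.447. These included EC nuclei without markers of cycling cells, 2230 of 2475 in the control and 2161 of 2944 in the CKO library. *Lama5* was also lower in vSMCs, at 138 CPM in the control and 89.0 CPM in the CKO library (ratio 0.643, 0.399 to 0.991), but not in CP_8, a choroid plexus cluster, at 81.8 and 92.2 CPM, or in glia, where 34.0 and 44.1 CPM gave a ratio of 1.29 (0.755 to 2.14). Whether these ratios differed between labels was not tested. Astrocytes, Glut_0 and Glut_1 had 0 UMIs of *Lama5* in both libraries.

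*Lamb1* encodes the beta chain of most laminins. In ECs it stood at 237 CPM in the control and 254 CPM in the CKO library, a ratio of 1.07. TMM factors brought it to 0.999, but it was 1.64 (1.04 to 2.57) among EC nuclei with few pericyte markers. In the set with 2 endothelial markers, which reached beyond the EC label, it was 1.27 (1.19 to 1.36). vSMCs held 142 and 151 CPM. *Lamb2* encodes the beta chain of synaptic, muscle and mature vascular laminins. In ECs *Lamb2* was at 232 CPM in the control and 165 CPM in the CKO library, a ratio of 0.710 (0.656 to 0.769), and in glia at 159 and 230.4 CPM, a ratio of 1.45 (1.16 to 1.81). It was therefore the lower in ECs of the CKO library and the higher in glia, with both intervals clear of 1. In vSMCs *Lamb2* was at 283 and 275 CPM.

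*Lamc1* encodes the gamma chain that nearly all laminins share. In ECs it was at 688 CPM in the control and 740 CPM in the CKO library, a ratio of 1.07 (1.03 to 1.12). It became 1.00 under TMM factors, 1.24 with nuclei weighted equally and 3.80 (2.88 to 5.02) among EC nuclei with few pericyte markers. In the set with 2 endothelial markers, which reached beyond the EC label, it was 1.26 (1.21 to 1.31). vSMCs held 508 and 453 CPM. Glia held 435 and 314 CPM, a ratio of 0.723 (0.605 to 0.859) that was 0.932 in nuclei with at least 1000 UMIs and 0.518 with nuclei weighted equally. How far the EC libraries differed in the common gamma chain thus depended on the choice and weight of nuclei, and the CKO library was the lower in glia when all nuclei were used.

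*Nid1* and *Nid2* encode the nidogens, which bridge laminin and type IV collagen and can partly stand in for each other. In ECs *Nid1* was at 586 CPM (3401 UMIs) in the control and 358 CPM (2454 UMIs) in the CKO library, a ratio of 0.611 (0.580 to 0.644). *Nid2* in ECs was at 246 CPM in the control and 328 CPM in the CKO library, a ratio of 1.34 (1.25 to 1.43). The nidogens thus lay on opposite sides of 1 in the same nuclei, and they did so under each of 7 alternatives, with *Nid1* from 0.568 to 0.760 and *Nid2* from 1.14 to 1.70. In vSMCs *Nid1* held 326 and 279 CPM (ratio 0.855, 0.659 to 1.10), and in glia *Nid2* held 125 and 60.1 CPM (ratio 0.480, 0.316 to 0.705). Glial *Nid2* depended on depth and weight of nuclei: its ratio was 0.951 among nuclei with at least 1000 UMIs, 0.266 with nuclei thinned and 0.162 with nuclei weighted equally.

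In other labels the counts of higher and lower genes were as follows. Glia had 0 of 9 genes higher, beside 19.4% of all glial genes, and 4 lower (*Lama1*, *Lama2*, *Lamb1*, *Nid2*), beside 18.6%. The glial count of 0 higher depended on the setting: *Lamb2* was at 1.60 with nuclei weighted equally (beside 28.1% of glial genes higher) and 2.28 with nuclei thinned (22.5%), and *Lama5* was at 3.09 with nuclei thinned (12 control and 9 CKO UMIs). The glial count of lower genes became 6 with TMM factors (*Lama4*, 0.587, and *Lamc1*, 0.622, added), beside 26.7% of glial genes, and 6 with nuclei weighted equally (*Lama4*, 0.648, and *Lamc1*, 0.518, added), beside 26.5%. It became 3 in nuclei with at least 1000 UMIs, without *Nid2*, beside 819 of 5840 genes. With nuclei thinned it was 6 of 8, with *Lama4*, *Lamc1* and *Nid1* but not *Lamb1*, beside 26.2%. vSMCs had 0 of 10 higher, beside 13.2%, and 1 lower (*Lama5*), beside 14.2%. These counts moved as well: *Lama1* was past the fold upward in nuclei with at least 1000 UMIs (1.60), beside 12.6% of genes. With nuclei thinned *Lama4* (0.596) and *Lamc1* (0.658) joined *Lama5* as lower, 3 of 6, beside 23.9%. Pericytes had 0 of 5 higher, beside 14.4%, and 3 lower (*Lamb1*, *Lamc1*, *Nid1*), beside 43.8%, so a lower value was common among all pericyte genes. The TMM shift there was -1.45 on the log2 scale, which put all 5 past the fold downward together with 91.1% of pericyte genes, and the 22 CKO nuclei gave 9213 UMIs. Astrocytes had 1 gene with enough UMIs, with 0 higher beside 13.4% and 0 lower beside 22.2%, though this gene, *Lama2*, was past the fold with TMM factors, beside 32.1% of genes, and in nuclei with at least 1000 UMIs, beside 17.3%. CP_6 had 0 of 7 higher, beside 7.32%, and 1 lower (*Nid2*, 0.547, interval 0.266 to 1.04), beside 7.78%. CP_8 had 2 of 6 higher (*Lama4*, 1.74, interval 0.999 to 2.96, and *Lamc1*, 1.66), beside 9.97%, and 0 lower, beside 16.6%. The astrocyte markers summed to 330 CPM in the CP_8 control and 553 CPM in the CP_8 CKO library (6 of 6 detected, *Slc1a2* most abundant in both), and their part in the CP_8 values was not tested. Glut_0 had 0 of 4 higher, beside 5.29%, and 4 lower (*Lama2*, *Lama4*, *Lamb1*, *Lamc1*), beside 14.7%. Among other neuron clusters, Glut_1 had 1 of 2 higher (*Lama1*, 1.51), beside 3.68%, and 0 lower, beside 16.2%. Glut_14 had 0 of 3 higher, beside 6.22%, and 2 lower (*Lama2*, 0.222, and *Lamb1*, 0.517), beside 8.67%. Glut_21 had 0 of 2 higher, beside 9.07%, and 1 lower (*Lamb1*, 0.104), beside 6.67%. GABA_9 had 1 gene with enough UMIs, lower (*Lama2*, 0.536), with 6.70% of all genes higher and 9.55% lower. GABA_22 had 1 as well, also lower (*Lamb1*, 0.364), with 13.5% higher and 33.8% lower. Oligodendrocytes had 0 of 2 higher, beside 5.54%, and 0 lower, beside 36.5%.

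In Glut_0, a glutamatergic cluster of 2112 control and 3102 CKO nuclei, *Lama4* was at 31.8 CPM in the control and 9.05 CPM in the CKO library (ratio 0.284, 0.219 to 0.365). *Lamb1* there had 90 UMIs in the control and 1 UMI in the CKO library, a ratio of 0.0156 (0.000390 to 0.0890). *Lama3*, with too few UMIs for the count, went from 45 UMIs to 1 UMI. All 3 were low in the CKO library, and markers of other cell types were low with them. The endothelial list summed to 9.29 CPM in the control and 5.43 CPM in the CKO library (9 of 9 and 8 of 9 detected, *Flt1* most abundant, *Pecam1* at 0 in the CKO library), the pericyte list to 9.72 and 5.19 CPM (6 of 8 and 3 of 8 detected, *Atp13a5* most abundant) and the choroid plexus list to 37.2 and 16.5 CPM (4 of 5 and 2 of 5 detected, *Ttr* most abundant). Their part in the Glut_0 values was not tested.

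The labels were compared with defining markers. In ECs the endothelial list summed to 12922 CPM in the control and 10090 CPM in the CKO library (9 of 9 detected, *Flt1* most abundant). The pericyte list in ECs summed to 8390 and 7127 CPM (8 of 8 detected, *Rgs5* most abundant at 5631 and 4831 CPM), and the fibroblast list to 940 and 679 CPM (7 of 7 detected, *Col1a2* most abundant). Choroid plexus markers in ECs were at 1121 and 479 CPM (5 of 5 detected, *Ttr* most abundant) and erythroid markers at 16246 and 7834 CPM (3 of 3 detected, *Hbb-bs* most abundant), both lower in the CKO library. Pericyte transcripts were thus abundant in nuclei labelled ECs in both libraries: 85.3% of control and 95.5% of CKO nuclei had a UMI of a pericyte marker. The label "glia" held the fibroblast list at 5458 CPM in the control and 5070 CPM in the CKO library (7 of 7 detected, *Col1a2* most abundant) and the astrocyte list at 2059 and 1863 CPM, so its name and its markers did not match. Pericyte markers in glia were lower in the CKO library, at 1187 CPM in the control and 791 CPM in the CKO library (8 of 8 and 7 of 8 detected, *Atp13a5* most abundant, *Kcnj8* at 0 in the CKO library), as were Bergmann glia markers, at 1064 and 585 CPM (4 of 4 detected, *Slc1a3* most abundant), and endothelial markers, at 957 and 583 CPM (9 of 9 detected, *Cdh5* most abundant). The part of these lists in the EC and glial values was not tested. Nuclei labelled vSMCs held smooth muscle markers at 5221 and 4734 CPM (6 of 6 detected, *Acta2* most abundant) beside endothelial markers at 5804 and 6073 CPM (9 of 9 detected, *Ptprb* most abundant).

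EC nuclei with few pericyte markers (under 10% of endothelial and pericyte marker UMIs) came to 481 control nuclei and 174 CKO nuclei. *Lama5* was at 101 CPM in these control nuclei and 34.2 CPM in the CKO nuclei, a ratio of 0.339 (0.104 to 0.866), which was as low as in all ECs. *Lama5* fell short of 50 UMIs there and left the count of lower genes. *Nid1* was at 353 and 259.7 CPM, and its ratio of 0.735 (0.498 to 1.06) no longer passed the fold or cleared 1. The lower genes among these nuclei were *Lama1*, *Lama3* and *Lamb2* (0.650, with an interval that held 1 and reached 1.14), so neither gene counted as lower in all ECs was counted here. They made 3 of 8 genes with enough UMIs, beside 29.3% of 1809 genes, and another 3 were higher (*Lamb1*, *Lamc1* and *Nid2*), beside 27.9%. *Lamc1* was at 247 CPM in the control and 936 CPM in the CKO nuclei, a difference that all ECs did not show. *Lama3* had 51 UMIs in the control nuclei, against 0 in those of the CKO library, with an upper limit of 0.183 on the ratio. The selected nuclei thus gave a different picture for *Lamc1* and *Lama3*, from 356771 control and 146298 CKO UMIs.

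Each gene had its own order of levels across the 18 brain labels with at least 50000 UMIs in both libraries. *Lama1* was highest in glia of the control (678 CPM), clear of ECs and vSMCs, which did not differ beyond counting error. In the CKO library *Lama1* was highest in vSMCs and glia, which did not differ beyond counting error. *Lama2* led in astrocytes and then glia of both libraries, and *Lama3* in CP_6 of both. *Lama4*, *Lamc1* and *Nid1* led in ECs of both libraries among the labels ordered. Pericytes were not ordered because the CKO library held too few of their UMIs, and in the control they held *Lama4* at 1510.1 CPM, *Lamc1* at 1904 CPM and *Nid1* at 1387 CPM, all above ECs. Control pericytes also held *Lama2* at 2068 CPM, above astrocytes, and *Lamb1* at 558 CPM, above CP_8, as did GABA_22, likewise not ordered, at 369 CPM. *Lama5* led in vSMCs of the control, and in the CKO library CP_8 and vSMCs, at 92.2 and 89.0 CPM, did not differ beyond counting error. *Lamb1* led in CP_8, followed by ECs, in both libraries. *Lamb2* was highest in vSMCs of the control, and in the CKO library vSMCs and glia did not differ beyond counting error. *Nid2* was highest in ECs of both libraries. In oligodendrocytes *Lama2* held 139.9 CPM in the control and 165 CPM in the CKO library, and the other 9 genes lay at 56.7 CPM or below in both.

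**Figure D2:**
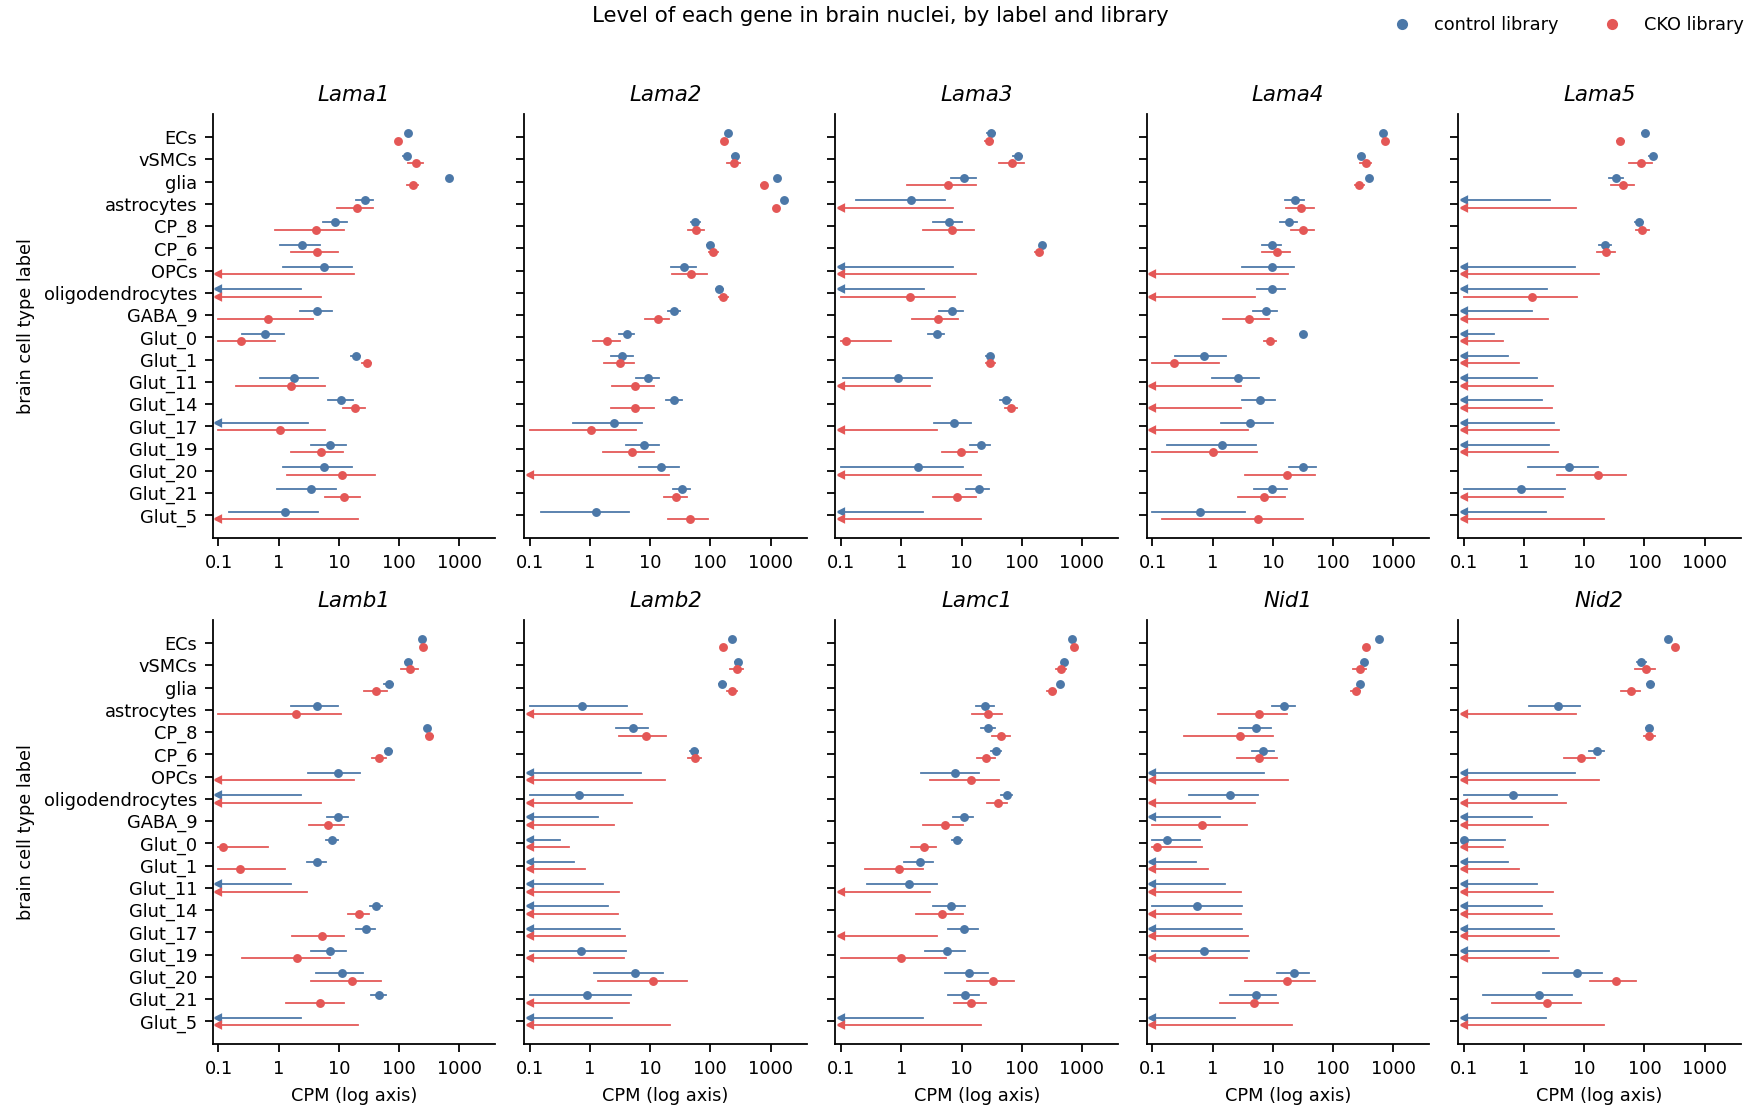
CPM (log axis) of each gene in the 18 brain labels ordered, with the control library in blue, the CKO library in red, bars for the 95% counting interval and arrows for labels with 0 UMIs. *Lama2* was highest in astrocytes (1664 CPM in the control), *Lama3* in CP_6 (213 CPM) and *Nid1* in ECs (586 CPM).

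Patterns over the 18 labels were described by Pearson's r of log2(CPM + 1), means of both libraries, with no test because the labels share libraries and depth. Among 14447 genes searched, those most alike were *Col15a1* (r 0.908), *Fstl1* (0.903) and *Slc25a15* (0.902) for *Lama1*. For *Lama2* they were *Dera* (0.958), *Fgd6* (0.937) and *Slc8b1* (0.928), and for *Lama3* *Ssh1* (0.887), *Yipf2* (0.868) and *4930453N24Rik* (0.868). *Zfp362* (0.962), *Abcg2* (0.958) and *Ltbp4* (0.955) were most alike to *Lama4*. The pattern of *Lama5* came closest to *Rnaset2a* (0.987), *Acaa2* (0.984) and *Csrp2* (0.980), and that of *Nid2* to *Rnaset2a* (0.988), *Rflna* (0.986) and *Acaa2* (0.984). *Wtip* (0.899), *Zfp275* (0.878) and *Rnaset2b* (0.876) were most alike to *Lamb1*, and *Irf1* (0.990), *Clic1* (0.988) and *Tapbp* (0.987) to *Lamb2*. *Lamc1* was nearest to *Smc4* (0.974), *Kank2* (0.946) and *Afap1l1* (0.946). Within the family the most alike pair was *Lama5* and *Nid2* (r 0.974), and the least alike pair was *Lama2* and *Lama3* (r 0.18).

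Of the laminin chains outside the 10, *Lamc3* was at 61.5 CPM in control ECs and 43.8 CPM in CKO ECs, a ratio of 0.712 (0.608 to 0.832). *Lamb3* had 0 UMIs in ECs of both libraries. Other basement membrane components had 21 of 24 genes with enough UMIs and a median log2 ratio of 0.15. Of these 6 were higher, beside 21.4% of all EC genes, namely *Fbln1* (2.47-fold), *Smoc2* (2.18), *Col15a1* (2.12), *Frem2* (2.10), *Npnt* (1.92) and *Tinagl1* (1.59). The 5 lower ones, beside 9.32% of all EC genes, were *Ntn4* (ratio 0.423), *Col4a5* (0.503), *Col4a6* (0.511), *Ntn1* (0.570) and *Fras1* (0.593, with 51 UMIs and an interval of 0.323 to 1.07). Laminin receptors had 14 of 15 genes with enough UMIs, 3 higher, 0 lower and a median of 0.16, beside 21.4% and 9.32% again. *Itga2*, an integrin alpha chain that binds collagen and laminin, was at 3.96 CPM in the control and 55.8 CPM in the CKO library, a ratio of 14.1 (9.23 to 22.5). The sarcoglycans *Sgce* (3.14) and *Sgcb* (2.32) were the others. The list for glycosylation of alpha-dystroglycan, the sugar chain that binds laminin, had 10 of 13 genes with enough UMIs, 1 higher (*B3galnt2*, 2.43), 0 lower and a median of 0.03, beside the same shares of all EC genes.

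The promoters of *Lama5* and *Nid1* are shown because these were the genes past the fold in ECs. RefSeq promoter sequence matched 5 of 10 genes by symbol (*Lama2*, *Lama5*, *Lamb1*, *Lamb2*, *Nid1*) on GRCm38.p6, read as 280 bases from 250 before to 30 after the transcription start. Capitals mark CAGAC, the letters that SMAD proteins can bind, on either strand (GTCTG on the strand shown). The *Lama5* window is chr2:180225830-180226109 on the minus strand, with 72.5% G and C, and the *Nid1* window is chr13:13437352-13437631 on the plus strand, with 65.4% G and C.
Lama5: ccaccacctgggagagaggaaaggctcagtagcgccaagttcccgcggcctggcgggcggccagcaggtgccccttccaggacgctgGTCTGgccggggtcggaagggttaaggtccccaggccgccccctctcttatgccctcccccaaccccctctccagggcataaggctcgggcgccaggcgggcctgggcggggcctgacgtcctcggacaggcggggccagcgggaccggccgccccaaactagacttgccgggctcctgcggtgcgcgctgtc
Nid1: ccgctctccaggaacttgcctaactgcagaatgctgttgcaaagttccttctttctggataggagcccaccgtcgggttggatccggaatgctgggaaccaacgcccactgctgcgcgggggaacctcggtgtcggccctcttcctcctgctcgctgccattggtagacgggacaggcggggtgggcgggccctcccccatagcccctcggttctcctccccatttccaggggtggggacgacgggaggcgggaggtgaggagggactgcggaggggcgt
*Lama5* held CAGAC once, as GTCTG at -163 bases from the start, and *Nid1* held 0 copies. Of the 5 promoters matched, 4 held it, beside 46.8% of 32851 mouse promoters of the same length. The longer GTCTAGAC, searched on both strands, was in 0 of 5, beside 0.192% of all promoters. A match or its lack describes these letters in these windows only.

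In the genome annotation, protein-coding genes overlap *Lama4* (*Fam229b*), *Lama5* (*Adrm1*), *Lamb1* (*Dld*) and *Nid2* (*Rtraf*). The strand on which UMIs were counted was not stated, so UMIs of such neighbours cannot be told apart from those of these 4 genes.

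The retinal comparison asked whether the genes differed between CKO libraries and the control in neurons, glia and immune cells of the retina, where the 11 labels used here do not include ECs. UMIs were summed per label and library, and libraries were compared by the edgeR quasi-likelihood test with the kit as covariate. The single control library was assumed to vary like the CKO libraries. It used kit version 4, so with the kit term each fold change compared it with the CKO libraries of version 4. Those of version 5 entered the spread but did not set the fold change. With a batch term the fold change likewise compared the control with the CKO libraries of batch 1. Over the 11 labels 51 pairs of a member gene and a label were tested, and 0 had an adjusted p under 0.05. At an unadjusted p under 0.05 there were 4 of 51 pairs, beside 3.16% of 126866 pairs of any gene and label. With batch as covariate 3 labels that had 0 such members gained 1 each. They were GABAergic amacrine cells (1 of 7, beside 256 of 14791 genes), horizontal cells (1 of 5, beside 573 of 10861) and ganglion cells (1 of 6, beside 243 of 13210). Astrocytes then had 0 of 5, beside 346 of 5165. DESeq2 gave 0 of 51 after adjustment, beside 0.872% of all pairs, and 3 of 51 before it, beside 3.56%. The tools differed widely over all genes, with 1106 pairs called by DESeq2 after adjustment. Among all genes, edgeR called 4 pairs in all: 0 in astrocytes (percentage 0), 1 in GABAergic amacrine cells (GABA_AC; 0.00676%), 1 in glycinergic amacrine cells (Gly_AC; 0.00726%), 1 in Müller glia (MG; 0.00770%) and 1 in cones. Every CKO library lay above the control for 5 of 51 pairs, beside 7.05% of all pairs, and every CKO library lay below it for 4 of 51, beside 4.69%.

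Markers of the label MG summed to 4237 CPM in the control and 3168 to 4561 CPM in CKO libraries (7 of 7 detected, *Slc1a3* most abundant), and markers of retinal astrocytes in the astrocyte label to 3166 CPM and 1752 to 5249 CPM (5 of 5 detected, *Gfap* most abundant). Both labels held their defining markers, but not alone. The astrocyte label held the Müller glia list at 3166 CPM in the control and 2223 to 4105 CPM in CKO libraries (7 of 7 detected, *Slc1a3* most abundant). With libraries pooled *Slc1a3*, which is also in the brain astrocyte list, was at 2141 CPM there. *Rlbp1*, a Müller glia marker in neither astrocyte list, was at 72.4 CPM there and 362 CPM in MG. The list total thus does not measure Müller glia RNA alone. The MG label held the rod list at 4140.0 CPM in the control and 2753 to 4964 CPM in CKO libraries (5 of 5 detected, *Sag* most abundant) and the endothelial list at 1292 CPM and 1094 to 1747 CPM (9 of 9 detected, *Flt1* most abundant). Erythroid markers (3 of 3 detected, *Hbb-bs* most abundant) were low in the control in all 11 labels, from 0 in astrocytes to 8.74 CPM in immune cells, while medians of CKO libraries ran from 46.8 CPM in GABA_AC to 170.0 CPM in immune cells. Their part in the values below was not tested.

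In MG, which span the retina and border its inner basement membrane, *Lama1* was at 119 CPM in the control, and 10 CKO libraries lay from 106 to 166 CPM (median 126). The control was within the CKO range. In Gly_AC *Lama1* was at 123 CPM in the control, and 10 CKO libraries lay from 61.1 to 101 CPM (median 87.4). All 10 were below the control, as for 4.80% of Gly_AC genes, those of batch 1 at 61.1 to 101 CPM among them. The log2 fold change was -0.54 (SE 0.20), with an unadjusted p of 0.0215 and an adjusted p of 1.00 from edgeR. Several lists in amacrine cells also lay on the same side of the control in all 10 CKO libraries. In Gly_AC erythroid markers were at 3.11 CPM in the control and 31.3 to 602 CPM in CKO libraries (3 of 3 detected, *Hbb-bs* most abundant), and ependymal markers at 21.8 CPM and 22.7 to 51.9 CPM (5 of 5 detected, *Cfap54* most abundant). Horizontal cell markers in Gly_AC were lower, at 117 CPM and 68.7 to 114 CPM (4 of 4 detected, *Calb1* most abundant), as were choroid plexus markers, at 21.5 CPM and 9.84 to 21.4 CPM (5 of 5 detected, *Ttr* most abundant). In GABA_AC erythroid markers were at 2.16 CPM and 21.4 to 90.1 CPM, and ependymal markers at 20.4 CPM and 20.6 to 56.4 CPM (5 of 5 detected, *Cfap54* most abundant). Microglial markers in GABA_AC were lower, at 52.1 CPM in the control and 36.1 to 49.0 CPM in CKO libraries (6 of 6 detected). Their part in the amacrine values of any gene was not tested.

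*Lama2* in MG was at 162 CPM in the control, and 10 CKO libraries lay from 30.0 to 149 CPM (median 70.9). All 10 were below the control, as for 5.20% of MG genes, but they were spread widely, and the 3 of batch 1 lay from 30.0 to 137 CPM. The log2 fold change was -1.34 (SE 0.61), with an unadjusted p of 0.0491 and an adjusted p of 0.824 from edgeR. The unadjusted p depended on the setting: it was 0.0739 with no covariate, 0.0522 with RLE factors, 0.0560 with total UMIs alone, 0.0745 without CKO replicates 4 and 5 and 0.127 with DESeq2, but 0.0210 with batch as covariate and 0.0423 in nuclei with at least 1000 UMIs. Other lists in MG were above the control in all 10 CKO libraries. Erythroid markers were at 1.99 CPM in the control and 35.6 to 895 CPM in CKO libraries (3 of 3 detected, *Hbb-bs* most abundant), and retinal astrocyte markers at 37.7 CPM and 68.9 to 152 CPM (5 of 5 detected, *Gfap* most abundant). Fibroblast markers were at 3.97 CPM and 11.4 to 31.9 CPM (6 of 7 detected, *Pdgfra* most abundant, *Lum* at 0), inhibitory neuron markers at 1.32 CPM and 2.28 to 25.6 CPM (3 of 3 detected, *Gad1* most abundant) and immune markers at 4.63 CPM and 4.92 to 19.9 CPM (5 of 5 detected, *Cx3cr1* most abundant). Their part in the *Lama2* values was not tested. In retinal astrocytes *Lama2* was at 224 CPM in the control (7 UMIs), and 8 CKO libraries lay from 0 to 199 CPM (median 113). Horizontal cells (HC) held 38.7 CPM of *Lama2* in the control and 26.0 to 101 CPM (median 41.2) in CKO libraries, a range that held the control.

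*Lama3* in HC was at 220.3 CPM in the control, and 10 CKO libraries lay from 70.0 to 247 CPM (median 131), of which 2 lay above the control. In GABA_AC the control was at 6.31 CPM, and 10 CKO libraries lay from 6.31 to 56.1 CPM (median 29.2). The CKO libraries split without values in between: replicates 1, 2, 3, 6, 7 and 10 lay between 27.3 and 56.1 CPM, while replicates 5, 8, 9 and 11 lay between 6.31 and 8.99 CPM, near the control. In Gly_AC the same 6 replicates lay between 23.9 and 32.3 CPM and the same 4 between 5.83 CPM in replicate 8 and 11.995 CPM in replicate 9, with the control at 7.07 CPM. Of the CKO libraries on the high side 5 used kit version 4 and 1 used kit version 5, and of those on the low side 1 used version 4 and 3 used version 5. The high side held libraries with high *Xist* (1, 2 and 7) and with high *Uty* (3, 6 and 10), while all 4 on the low side had high *Uty*. The kit was a term of the fit, but the part of kit, batch and sex in this split was not tested. In the fit with the kit term the log2 fold change was 2.28 (SE 1.31) in GABA_AC and 1.74 (SE 0.86) in Gly_AC by edgeR. With no covariate, where all CKO libraries set it, it was 2.01 and 1.45, and without CKO replicates 4 and 5 it was 2.51 and 1.94. The unadjusted p of both lay on either side of 0.05 depending on the setting, and neither was called in the main fit. Within batch 1, where all 3 CKO libraries were on the high side, it was 2.59 in GABA_AC and 1.94 in Gly_AC. The edgeR fit of that batch called both, beside 0.0140% and 0.0831% of genes. Its spread came from 3 CKO libraries and none from the control, and 4 CKO libraries of other batches lay near the control, so no p is given and the calls carry no weight for CKO libraries in general. In ganglion cells (RGC) *Lama3* was at 6.60 CPM in the control and 7.48 to 83.0 CPM in 11 CKO libraries (median 14.2), with the highest in the shallow replicate 4. The RGC label of that replicate held 25 nuclei and 36147 UMIs.

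**Figure D3:**
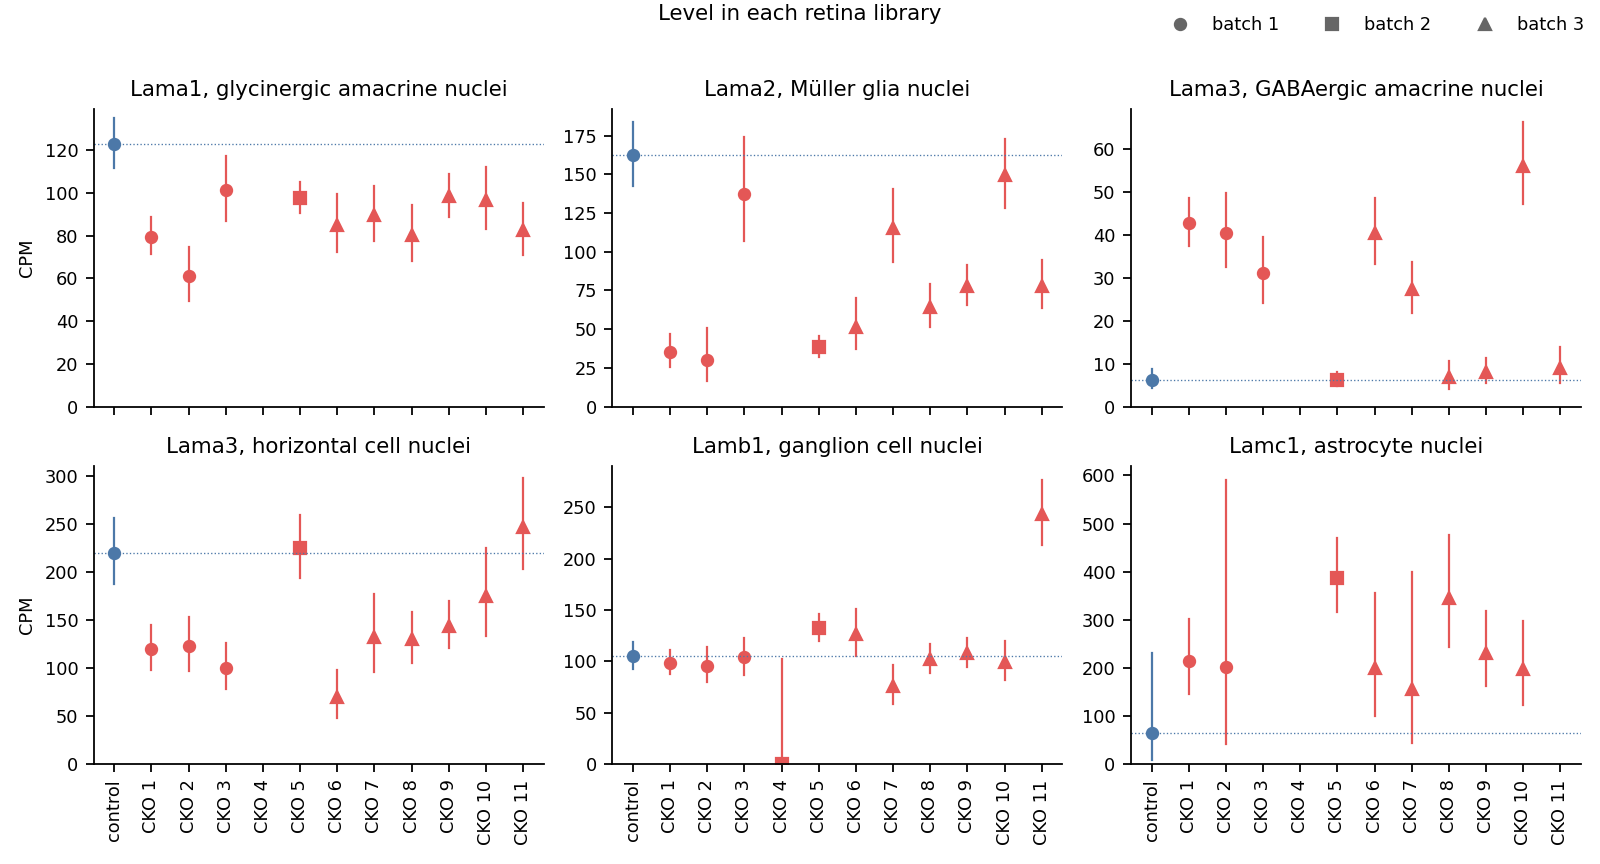
CPM in each retina library with enough nuclei, for 6 pairs of a gene and a label, with the control in blue (dotted line), CKO libraries in red, symbols for the batch and bars for the 95% counting interval. *Lama3* in GABA_AC split the CKO libraries into those from 27.3 to 56.1 CPM and those from 6.31 to 8.99 CPM, and *Lama2* in MG was below the control (162 CPM) in 10 of 10 CKO libraries.

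*Lama4* in GABA_AC was at 18.9 CPM in the control and 15.9 to 34.4 CPM in CKO libraries (median 25.5), and the control was within their range. *Lama5* in MG was at 30.4 CPM in the control and 28.5 to 66.3 CPM in CKO libraries (median 47.5), with 9 of 10 above the control and an unadjusted p of 0.230 from edgeR. In retinal astrocytes *Lama5* had 0 UMIs in the control, which allows up to 118 CPM, and 8 CKO libraries lay from 26.6 to 202 CPM (median 65.6). The control label held 31274 UMIs in all, so most of these differences were not detectable at its depth.

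*Lamb1* in RGC was at 105 CPM in the control and 0 to 243 CPM in 11 CKO libraries (median 102), with replicate 4 at 0 and replicate 11 highest. The RGC label of replicate 4 held only 25 nuclei and 36147 UMIs, so its 0 says little about the level. In GABA_AC *Lamb1* held 41.6 CPM in the control and 31.7 to 43.4 CPM in CKO libraries (median 35.8). In Gly_AC it was at 1.13 CPM (4 UMIs) in the control and 2.63 to 8.61 CPM in 10 CKO libraries (median 3.95), all 10 above the control, as for 8.78% of Gly_AC genes. The log2 fold change was 1.93 (SE 0.72), with an unadjusted p of 0.0204 and an adjusted p of 1.00 from edgeR. With batch as covariate the unadjusted p was 0.0584. *Lamb2* in MG was at 11.2 CPM in the control and 7.38 to 21.2 CPM in CKO libraries (median 13.3), which included the control.

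*Lamc1* was found in every retinal label. In astrocytes it was at 64.0 CPM in the control (2 UMIs, counting interval 7.74 to 231 CPM, which held the CKO median), and 8 CKO libraries lay from 156 to 387 CPM (median 207), with the 2 of batch 1 that could be used at 202 and 213 CPM. All 8 were above the control, as were all CKO libraries for 670 of the 5165 astrocyte genes, and the log2 fold change was 2.06 (SE 0.96), with an unadjusted p of 0.0475 and an adjusted p of 0.636 from edgeR. The unadjusted p was 0.0962 with batch as covariate, 0.0980 without CKO replicates 4 and 5 and 0.103 with DESeq2, but 0.0393 with no covariate and 0.0239 in nuclei with at least 1000 UMIs. Pericyte markers in the same label were higher too, at 95.9 CPM in the control and between 312 and 808 CPM in CKO libraries (6 of 8 detected, *Rgs5* most abundant, *Kcnj8* and *Higd1b* at 0), while endothelial markers were at 128 CPM in the control and 74.5 to 234 CPM in CKO libraries (7 of 9 detected, *Flt1* most abundant, *Cldn5* and *Cdh5* at 0). Some other lists were above the control in all 8 CKO libraries as well. Rod bipolar markers were at 544 CPM in the control and 1005 to 4250.2 CPM in CKO libraries (4 of 4 detected, *Prkca* most abundant), and brain astrocyte markers at 2270.3 CPM and 2339.6 to 6192 CPM (6 of 6 detected, *Slc1a3* most abundant). Smooth muscle markers were at 32.0 CPM and 67.3 to 309 CPM (5 of 6 detected, *Mylk* most abundant, *Cnn1* at 0), erythroid markers at 0 and 36.1 to 404 CPM, and ependymal markers at 0 and 28.0 to 161 CPM (4 of 5 detected, *Cfap54* most abundant, *Spag17* at 0). Some lists lay below the control in all 8. Pigment epithelium markers were at 159.9 CPM in the control and 49.9 to 135 CPM in CKO libraries (4 of 4 detected, *Rlbp1* most abundant) and immune markers at 32.0 CPM and 0 to 29.8 CPM (3 of 5 detected, *Cx3cr1* most abundant, *Ptprc* and *Csf1r* at 0). The part of these lists in the result was not tested. In MG *Lamc1* was at 45.7 CPM in the control and 43.2 to 77.9 CPM in CKO libraries (median 60.4).

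*Nid1* in retinal astrocytes had 0 UMIs in the control, and 8 CKO libraries lay from 26.8 to 93.2 CPM (median 60.7), below the 118 CPM that 0 UMIs allow. *Nid2* there was at 64.0 CPM in the control (2 UMIs) and 0 to 89.3 CPM in CKO libraries (median 55.0). In MG *Nid1* had 0 UMIs in the control and reached at most 5.79 CPM in CKO libraries.

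Levels across retinal labels were compared within libraries, control and CKO together, as log2(CPM + 1) in the label with the highest mean minus that with the second highest. The labels were picked by the same values, which partly fixes the direction, so the differences are given as a description, and the p-values of the planned test are left out. *Lamb1* was higher in RGC than in GABA_AC by 1.58 (mean over libraries; 11 of 11 libraries), and *Lamc1* was higher in astrocytes than in cones by 1.36 (9 of 9). *Lama1* was higher in MG than in Gly_AC by 0.52 (10 of 11). *Nid1* was higher in astrocytes than in MG by 3.42 and *Nid2* higher in astrocytes than in immune cells by 3.44, each in 8 of 9 libraries. With log2(CPM + 10) these differences became 2.02 and 1.95. *Lama3* was higher in HC than in astrocytes by 2.47 (SD 3.18, in 8 of 9 libraries). That difference was 1.81 in the CKO libraries alone and 1.62 with log2(CPM + 10). For 4 other genes the difference between the top labels was smaller than its spread: 0.12 (SD 2.10; 6 of 9 libraries) for *Lama2* in astrocytes over MG, -0.02 (SD 0.34; 5 of 11) for *Lama4* in GABA_AC over RGC, 0.09 (SD 1.96) for *Lama5* in MG over astrocytes, where MG was the higher in only 3 of 9 libraries, and 0.27 (SD 2.21; 6 of 9) for *Lamb2* in astrocytes over MG. The mean difference of *Lama3* was also smaller than its SD. *Lama5* changed order with a larger pseudocount or without the control. Without the control the mean of *Lama2* was the higher in MG (6.10, against 6.02 in astrocytes), while its difference within libraries was 0.075. With the larger pseudocount astrocytes became the second label of *Lamb1*.

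Photoreceptors and bipolar cells held the lowest mean levels of *Lama1*, *Lama3* and *Lamb1* among the retinal labels, but not of every gene. Cones ranked 2 for *Lamc1*, and rods ranked 4 for *Nid2*. In rods the medians over 11 libraries ran from 0 CPM for *Lama1* to 1.75 CPM for *Lama2*, apart from *Lamc1* at 34.5 CPM. In cones *Lamc1* was at 59.0 CPM in the control and 54.4 to 100.2 CPM in CKO libraries (median 83.5). Rod bipolar cells held 19.1 CPM of *Lamc1* in the control and 23.3 to 43.6 CPM in 10 CKO libraries, all 10 of which were above the control, as for 7.29% of genes in that label (edgeR p 0.134, unadjusted). Smooth muscle markers in that label were above the control in all 10 too, at 64.5 CPM in the control and 74.8 to 145 CPM in CKO libraries (6 of 6 detected, *Mylk* most abundant), and their part in the *Lamc1* values was not tested.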

How the data were processed

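The deposited matrices hold whole UMI counts per gene and nucleus. The authors made these counts with PIPseeker 3.3.0 and the GRCm39 index (the labels list mm10), CellBender 0.3.2 for empty droplets and background, SOLO (scVI-tools 1.2.2-post2) for doublets and a curation by hand that took out nuclei of mixed identity and, in retinal CKO replicates 4 and 5, multi-nucleus clusters. The deposited cell type labels, library names and batch numbers were used as given, and the display coordinates were not used. UMIs were summed per label and library and divided by the total to give CPM. Libraries were grouped by genotype as labelled. Brain ratios have exact 95% intervals and no test. A gene was counted past 1.5-fold with at least 50 UMIs over both libraries, with a library at 0 UMIs taken at 3 counts. Retinal libraries with at least 10 nuclei and 10000 UMIs of a label were fitted with edgeR 4.0.16 (quasi-likelihood, TMM, filterByExpr, kit as covariate) where the control and at least 3 CKO libraries passed, with Benjamini-Hochberg adjustment over all genes of a label and a threshold of 0.05. The SE beside a log2 fold change was derived from the test, as its absolute value divided by the square root of the F statistic. Orders of retinal labels are described by differences of log2(CPM + 1) within libraries; the planned exact sign-flip test was run, but its p-values are not given, because the labels were picked by the same values. Alternatives were scaling, depth, weight and choice of nuclei, minimum, fold, covariate, libraries, normalization, filter, pseudocount and DESeq2 1.42.0. With batch as covariate the fold change rests on the control and the CKO libraries of batch 1, because the other batches hold no control. Named genes are the 10 members in labels with at least 5 UMIs, *Lamb3*, *Lamc3*, members of the lists past the fold in ECs, marker genes beside the values they move with, *Tgfbr1*, and the genes most alike to a member (up to 3 each) among genes with at least 200 UMIs. *Xist* and *Uty*, *Itga2*'s CPM values and the gene levels in the subsets of nuclei were described after their values were seen. The subsets were planned as alternatives, and that with 2 endothelial markers reached beyond the EC label. The members and lists were chosen with earlier results of these data known. The code was tested on simulated data. Software was R 4.3.3 with limma 3.58.1, and Python 3.11.15 with pandas 2.3.3, scipy 1.17.1, numpy 2.4.6 and matplotlib 3.10.9.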

Additional observations from a re-analysis of the deposited data

Results flagged for a closer look

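In retinal labels with 4 to 10 CKO libraries, 43 groups of values were examined for a library far from the rest, and 6 had one. The limits used set about 5% of groups aside for normal values of equal precision. Many of these values came from few UMIs in libraries of unequal depth, so 6 of 43 cannot be set against that share. CKO replicate 2 was far above the other CKO libraries in retinal astrocytes for *Lama5*, at 202 CPM from 3 UMIs, and for *Lamb1*, at 269 CPM from 4 UMIs, in a label of 12 nuclei and 14859 UMIs. CKO replicate 10 was far above the others for *Lama2* in HC, at 101 CPM (34 UMIs). CKO replicate 3 was far above the others for *Lama2* in rod bipolar cells, at 9.98 CPM (8 UMIs), for *Lama4* in the same label, at 8.73 CPM (7 UMIs), and for *Lama3* in rods, at 3.13 CPM (9 UMIs). In brain, *Lama1* lay on opposite sides in the libraries compared, with a CKO over control ratio of 1.51 in Glut_1 and 0.251 in glia, each with an interval clear of 1. *Lamc1* had a ratio of 1.66 in CP_8 and 0.283 in Glut_0. These differences between labels were not tested.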

How the results depend on the processing

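Of 162 alternative values of brain ratios, 102 stayed within the counting interval, 60 moved outside it and 0 that were past the fold changed sides. Among the alternatives, the set of nuclei with 2 endothelial markers (3205 control and 3115 CKO nuclei) reached beyond the EC label. EC members past the fold upward, 0 in the report, were 3 among EC nuclei with few pericyte markers (*Lamb1*, *Lamc1*, *Nid2*; beside 27.9% of all genes there) and 1 among nuclei with 2 endothelial markers (*Nid2*; 12.8%). EC members past it downward, 2 in the report, were 4 with TMM factors (beside 12.2% of all EC genes) and 4 with the mean CPM per nucleus (11.2%), but 1 among nuclei with 2 endothelial markers (21.4%) and 1 at 2-fold (3.90%). They were 3 among EC nuclei with few pericyte markers (29.3%), a different set (*Lama1*, *Lama3*, *Lamb2*), where *Lama5* had too few UMIs to count and *Nid1* was at 0.735. All EC genes past it upward (2428) came to 4623 with the mean CPM per nucleus, 504 among nuclei with few pericyte markers, 1279 at a minimum of 200 UMIs and 1073 at 2-fold. Those past it downward (1058) came to 604 with nuclei thinned to 500 UMIs, 530 among nuclei with few pericyte markers, 1593 at a minimum of 20 UMIs, 546 at 200 UMIs and 443 at 2-fold. In the wider set with 2 endothelial markers 2860 genes were past it downward. The higher genes made up 69.7% of EC calls, 58.9% with TMM factors and 78.4% with the mean CPM per nucleus, but 48.7% among nuclei with few pericyte markers and 37.4% among nuclei with 2 endothelial markers, where the lower genes were the more numerous. Stricter minimums and folds count fewer genes by construction; the cause of the other shifts was not tested. *Lama5* kept its direction in ECs under 7 of 7 alternatives (0.339 to 0.447) and *Nid1* under 7 of 7 (0.568 to 0.760). In retina, member calls were 0 under the alternatives run except 2 in batch 1 alone (*Lama3* in GABA_AC and Gly_AC), a fit whose spread rests on 3 CKO libraries and that 4 CKO libraries of other batches do not share. Genes called in MG, 1 in the report, were 17 in batch 1 alone, 107 with DESeq2 and 2 without a filter, and 1 to 6 when each CKO library was left out, with 6 without CKO replicate 7. Of 30 alternatives to the order of retinal levels, 2 reversed a direction. *Lama2* in astrocytes minus MG became 0.97 in nuclei of at least 1000 UMIs, *Lama3* in HC minus astrocytes became 1.81 in CKO libraries alone, and *Lama5* in MG minus astrocytes turned to -0.19 with log2(CPM + 10) and to -0.52 in CKO libraries alone; the cause was not tested. No paired analysis was possible because the control and CKO groups are different mice that share only 1 replicate number. Retinal astrocytes could not be fitted in batch 1 alone, and labels with 0 UMIs of a gene gave no ratio. The brain has 1 library per genotype and the retina 1 control, so differences between mice are not covered by any interval. Small labels limit what can be seen: brain pericytes had 22 CKO nuclei, and control retinal astrocytes had 31274 UMIs.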
